A study of Mus musculus with 58 samples.

Results

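The voltage-gated sodium and calcium channels and the hyperpolarization-activated HCN channels were examined in mouse somatosensory cortex. Genes were chosen by symbol, as every gene whose name begins with Scn and a digit, with Cacn, or with Hcn and a digit, except Scn4b, which is also a marker of striatal tissue. This gave 30 of the 9636 genes in the count table. They comprise 4 sodium channel alpha subunits, 3 sodium channel beta subunits, 5 high-voltage-activated and 3 T-type calcium channel alpha1 subunits, 3 alpha2delta, 4 beta and 5 gamma or TARP subunits, and 3 HCN subunits. Of the 43 family members listed in these 8 roles, the other 13 were not analysed here.

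The study concerns repeated mild head injury and inhibition of the stress kinase p38 MAPK. All 58 libraries came from C57BL/6J mice that were 2 to 4 months old at assignment to 5 once-daily closed head injuries (5xCHI) or to as many sham procedures. SB239063 (SB, a small-molecule p38 inhibitor, 20 mg/kg intraperitoneally in saline) or saline vehicle was injected 30 min after each procedure, so that every group, sham mice included, had procedures and injections. Tissue was taken in the chronic phase, about 1 month after the last procedure, given as about 18 and 34 days without saying which day applies to which animal. The females comprised 11 5xCHI SB, 12 5xCHI vehicle, 3 sham SB and 9 sham vehicle libraries, and the males 8, 8, 2 and 5. Animals came in 4 labelled cohorts per sex, named F1 to F4 and M1 to M4, and sham SB animals occurred only in F1, F2, M1 and M2. Cohorts lie within sex, so levels of the sexes cannot be told apart from cohort and were not compared. The labels do not say outright that each library is a separate animal, so p-values measure the spread between these samples, which may in part be technical.

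Voltage-gated sodium channels open on depolarization and carry the upstroke of the action potential, with an alpha subunit forming the pore and beta subunits setting gating and surface expression. Voltage-gated calcium channels turn depolarization into calcium entry. Their high-voltage-activated alpha1 subunits serve transmitter release and dendritic signalling and depend on alpha2delta and beta subunits for trafficking, whereas T-type subunits open near rest and support burst firing. HCN channels open on hyperpolarization and shape the resting potential and dendritic integration of pyramidal neurons, and several gamma subunits act as TARPs, which traffic AMPA receptors.

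Promoter sequences are shown for the 3 channel genes whose levels differed between cohorts in both sexes (Scn1a, Scn2b and Cacna1i) and, for contrast in base composition, for Cacna2d3 and Cacna1b. They are the 250 bases before the RefSeq start on GRCm38.p6, an older build than the GRCm39 that the submitters name. They lie at chr2:66440838-66441087 on the minus strand for Scn1a, chr9:45117626-45117875 on the plus strand for Scn2b and chr15:80286988-80287237 on the plus strand for Cacna1i. Those for contrast lie at chr14:29721865-29722114 on the minus strand for Cacna2d3 and chr2:24763153-24763402 on the minus strand for Cacna1b. Each is written 5′ to 3′ on the gene's strand, and capitals mark the GC box GGGCGG or its complement CCGCCC, the core of the site bound by Sp factors.
Scn1a: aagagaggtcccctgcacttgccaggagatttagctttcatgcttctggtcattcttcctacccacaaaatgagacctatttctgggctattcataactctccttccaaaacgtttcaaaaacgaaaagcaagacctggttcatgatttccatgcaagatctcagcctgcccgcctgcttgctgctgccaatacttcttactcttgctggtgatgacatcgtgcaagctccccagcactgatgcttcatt
Scn2b: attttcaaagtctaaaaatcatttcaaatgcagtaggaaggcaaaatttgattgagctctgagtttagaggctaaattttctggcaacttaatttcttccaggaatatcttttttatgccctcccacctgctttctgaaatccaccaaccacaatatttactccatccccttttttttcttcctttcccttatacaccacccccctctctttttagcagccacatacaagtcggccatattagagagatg
Cacna1i: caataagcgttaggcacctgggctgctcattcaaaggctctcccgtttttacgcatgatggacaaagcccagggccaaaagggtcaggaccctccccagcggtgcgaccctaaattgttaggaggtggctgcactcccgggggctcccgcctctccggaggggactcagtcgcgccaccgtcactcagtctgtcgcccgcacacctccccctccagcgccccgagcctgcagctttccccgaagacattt
Cacna2d3: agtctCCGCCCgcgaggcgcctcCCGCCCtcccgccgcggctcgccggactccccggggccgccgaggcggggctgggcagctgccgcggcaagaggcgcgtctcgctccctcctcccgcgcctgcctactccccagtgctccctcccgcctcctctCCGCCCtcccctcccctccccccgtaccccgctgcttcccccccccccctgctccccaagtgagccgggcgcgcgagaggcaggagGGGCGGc
Cacna1b: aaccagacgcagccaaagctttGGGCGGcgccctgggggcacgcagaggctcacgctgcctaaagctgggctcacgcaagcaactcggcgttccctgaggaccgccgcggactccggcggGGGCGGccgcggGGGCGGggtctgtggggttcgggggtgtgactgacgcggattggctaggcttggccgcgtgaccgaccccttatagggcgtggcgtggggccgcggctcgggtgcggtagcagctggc
The Scn1a, Scn2b and Cacna1i windows held no GC box. That of Cacna2d3 held 4 and that of Cacna1b held 3, and both of these genes also differed between female cohorts. A link between GC boxes and cohort levels was not tested. The Scn2b window was 38.4% G or C and the Cacna2d3 window 80%. Promoters were listed for 21 of the 30 channel genes, with 31 starts. A GC box on either strand was in 38.7% of these windows, against 59% of the 10227 windows of all genes in the table. The TATA box TATAAA, which does not overlap the GC box, was in 6.45% of the channel windows and in 5.81% of all windows. A missing match says only that these letters are not in the window.

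The libraries held 28316280 to 49158277 counts, of which the 30 channel genes took 0.567% ± 0.0374 (SD, n = 58). Of the markers of the labelled tissue, 7 of 7 excitatory and 7 of 7 inhibitory neuron markers were measured, while 0 of 4 choroid plexus markers were, and striatal Drd1, Drd2 and Adora2a were not analysed here. A library was called distant when its robust z exceeded 3.5 on any of the first 4 principal components. These were female 5xCHI SB replicate 8 (F4), female sham vehicle replicates 1 (F2) and 7 (F3) and male sham vehicle replicate 2 (M3). Female sham vehicle replicate 1 was the lowest of the 58 libraries for 11 of the 30 channel genes and had the highest summed oligodendrocyte marker level, 20500 CPM (library-scaled read counts, with TMM factors). Male sham vehicle replicate 4, the only sham vehicle library of M1, was lowest for 4. Results are given without the distant libraries where these move them.

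Cacng7, the sodium channel beta subunit Scn2b and the calcium channel beta subunit Cacnb3 were among the most abundant channel mRNAs per length. Levels between genes were compared as CPM per kb of exon, with the merged length of all exons listed for a gene in GENCODE vM21. Cacng7, a type II TARP, stood at 77.4 ± 5.55 CPM per kb (SD, n = 58), above 95.5% of all genes, and varied least of the members, from 150 to 219 CPM. Hcn3, a minor HCN subunit of cortex, was lowest at 3.25 ± 0.694 CPM per kb, above 10.8% of all genes. Of the 29 neighbouring pairs in this order, 4 were separated by more than 1 SD, among them Cacnb3 over Cacng3, Cacnb1 over Scn1a and Cacna1g over Cacng4. The other 25 had a gap within 1 SD, a measure that ignores that both genes come from the same libraries. Their order held in 27 (Cacna1i over Cacng8) to 50 (Scn1a over Cacna2d1) of 58 libraries.

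**Figure D1:**
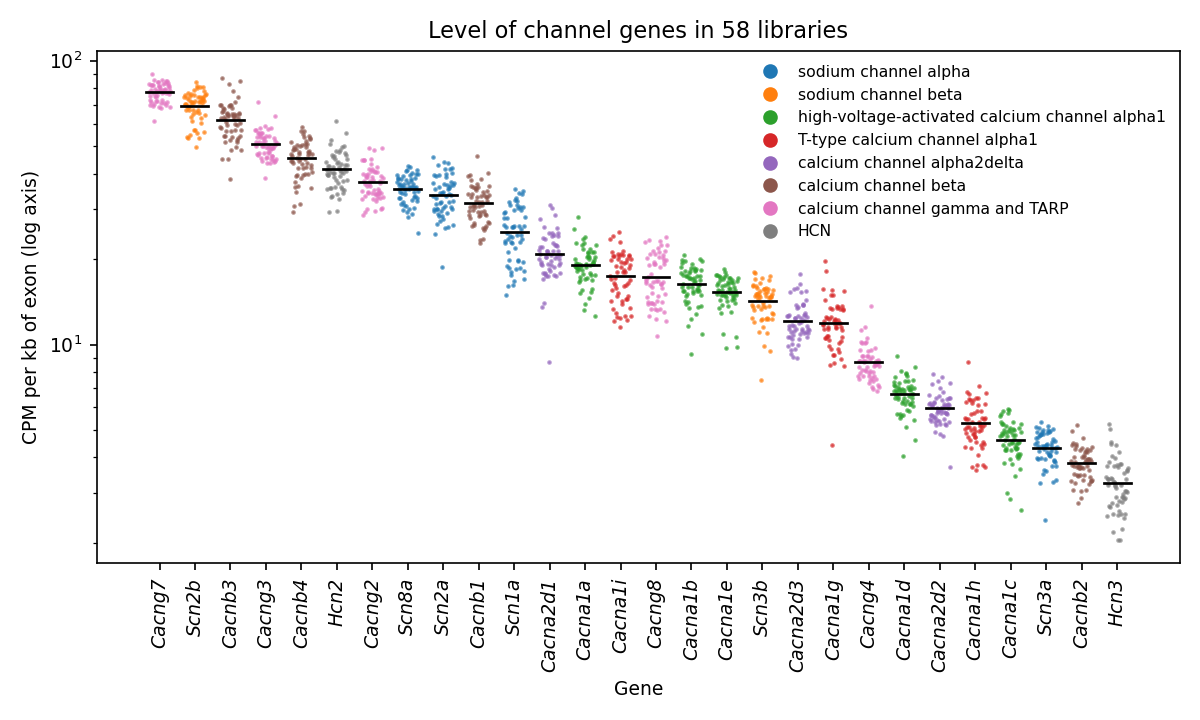
Level of 28 channel genes in CPM per kb of exon on a log axis. Each point is 1 of 58 libraries, black bars are means and colours give the role; Cacng7 is at 77.4 CPM per kb and Hcn3 at 3.25.

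Among the sodium channel pores, Scn8a and Scn2a were the most abundant. Scn8a, the channel of adult nodes and axon initial segments, had 35.4 ± 3.85 CPM per kb and Scn2a, typical of excitatory neurons, 33.7 ± 5.57. Scn1a, the main sodium channel of fast-spiking interneurons, had 24.9 ± 5.49 CPM per kb. Scn3a, which is expressed mainly before birth, was the lowest pore at 4.33 ± 0.566 CPM per kb. Of the beta subunits, Scn2b, which is linked to alpha subunits by a disulfide bond, reached 69.3 ± 8.16 and Scn3b 14.2 ± 2.1 CPM per kb.

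Per kb of exon, Cacna1a had the highest mean of the calcium channel pores. It lay above the next pore, Cacna1i, in 48 of 58 libraries, by less than 1 SD on average. This P/Q-type subunit of fast presynaptic release had 19.1 ± 2.87 CPM per kb. Among high-voltage-activated subunits the N-type Cacna1b followed at 16.4 ± 2.36 and the R-type Cacna1e at 15.4 ± 1.89. Before division by length Cacna1e was higher, at 387 CPM over 25228 bases of exon, against 218 CPM over 11418 for Cacna1a. The L-type subunits were lower, with Cacna1d at 6.67 ± 0.886 and Cacna1c, the main L-type pore of forebrain neurons, at 4.61 ± 0.712 CPM per kb. Of the T-type subunits, Cacna1i had 17.5 ± 3.39, Cacna1g 11.9 ± 2.45 and Cacna1h 5.3 ± 0.976 CPM per kb. Cacna1g had the widest range of the members, from 45 CPM in female sham vehicle replicate 1 to 200 CPM in female 5xCHI SB replicate 8. This 4.45-fold span lies between 2 of the distant libraries.

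Auxiliary subunits of calcium channels ran from 3.82 CPM per kb (Cacnb2) to 77.4 (Cacng7), a wider range than the 4.61 (Cacna1c) to 19.1 (Cacna1a) of the pores. Among the alpha2delta subunits, Cacna2d1, a binding site of gabapentin, was highest at 20.9 ± 3.85 CPM per kb, then Cacna2d3 at 12.1 ± 1.93 and Cacna2d2 at 5.96 ± 0.74. Cacnb3 led the cytoplasmic beta subunits with 61.8 ± 9.52 CPM per kb, ahead of Cacnb4 (45.3 ± 6.68), Cacnb1 (31.6 ± 4.67) and Cacnb2 (3.82 ± 0.496). The TARPs Cacng3 and Cacng2 had 50.8 ± 5.6 and 37.2 ± 5 CPM per kb. Cacng8, a TARP known best from hippocampus, had 17.3 ± 3.43 and Cacng4 8.67 ± 1.21 CPM per kb. Hcn2, the most abundant HCN subunit per length, had 41.5 ± 6.22 CPM per kb.

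Repeated injury changed no channel gene detectably in vehicle-treated mice. With edgeR's quasi-likelihood test, adjusted by Benjamini-Hochberg over the 9636 genes, 0 of 30 members passed an adjusted p of 0.05, as did 0% of all genes. At an unadjusted p under 0.05 there were also 0 of 30, against 1.75% of all genes, and DESeq2 and limma voom gave 0 at both thresholds. The median log2 difference of the members was 0.026 against -7e-04 over all genes, with 23 of 30 (76.7%) higher against 49.4% of all genes. Every 95% interval of the members lay within a 1.5-fold change, as did those of 99.9% of all genes. Without the 4 distant libraries the median was -0.012 with 12 of 30 higher, and under voom it was -0.016 with 8 higher. Without male sham vehicle replicate 4 alone it was -0.019.

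Scn3b had the smallest p after injury, and it did not pass. This beta subunit ranged from 51.7 to 94.9 CPM with a median of 81.9 in the 20 5xCHI vehicle libraries and from 41.1 to 93.4 with a median of 72.8 in the 14 sham vehicle libraries. The groups overlapped over nearly their whole range. Its log2 difference was 0.13 ± 0.0738 (SE, edgeR p = 0.0805, adjusted p = 1). Cacna1c (0.081 ± 0.0655) and Scn3a (0.081 ± 0.0703) followed among genes with a positive log2 difference. Cacng2, the TARP stargazin (-0.085 ± 0.0603), and Cacnb1 (-0.050 ± 0.0574) were among the negative ones, all with an adjusted p of 1 by edgeR.

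Within cohorts the injury difference was uneven. The median member difference on the log2 scale was 0.18 in F2 and 0.21 in M1, and between -0.072 and 0.0098 in the other 6 cohorts. F2 and M1 each hold 1 sham vehicle library, replicate 1 of the females and replicate 4 of the males. In these libraries the N-type subunit Cacna1b had 92.4 and 108 CPM and the L-type subunit Cacna1c 60.4 and 55.4 CPM. The other sham vehicle libraries had 122 to 195 CPM of Cacna1b and 77.5 to 111 CPM of Cacna1c, so these 2 libraries lay below all the rest of their group for both genes.

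In injured mice, the largest positive differences under SB were among calcium channel pores. Again 0 of 30 members passed an adjusted p of 0.05 by edgeR (0% of all genes), DESeq2 or voom. By edgeR 6 members had an unadjusted p under 0.05, all with higher values under SB, which is 20% of the members against 7.06% of all genes; DESeq2 gave 6 and voom 9. The 6 by edgeR were the high-voltage-activated Cacna1a, Cacna1b and Cacna1c, the T-type Cacna1g and Cacna1i, and the beta subunit Cacnb3. With single libraries left out, this count ran from 4 to 7. It was 4 without female 5xCHI SB replicate 8, a distant library, and 7 without female 5xCHI SB replicate 9. All 8 calcium channel alpha1 genes had a positive log2 difference. The 5 high-voltage-activated genes ran from 0.061 to 0.16 (median 0.14) and the 3 T-type genes from 0.14 to 0.19 (median 0.14). Within cohorts, Cacna1d was positive in 4 of 8 and Cacna1e in 5 of 8. The sodium channel alpha subunits lay between 0.034 and 0.077, which overlaps the high-voltage-activated range. Over all members the median was 0.060 with 25 of 30 (83.3%) positive. Over all genes it was 0.0034 with 52.2% positive.

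Cacna1b ranged from 127 to 205 CPM with a median of 178 in the 19 5xCHI SB libraries and from 116 to 181 with a median of 156 in the 20 5xCHI vehicle libraries. The ranges overlapped, and the difference was positive within 8 of 8 cohorts. On the log2 scale it was 0.16 ± 0.0562 (edgeR p = 0.00643, adjusted p = 0.655). Cacna1i ranged from 124 to 238 CPM (median 178) with SB and from 119 to 205 (median 161) with vehicle, again overlapping. Its log2 difference was 0.14 ± 0.051 (edgeR p = 0.00885, adjusted p = 0.655), positive in 7 of 8 cohorts. Cacna1a had 166 to 320 CPM (median 229) with SB and 174 to 269 (median 210) with vehicle, overlapping as well. Its log2 difference of 0.14 ± 0.0567 (edgeR p = 0.0166, adjusted p = 0.663) was positive in 8 of 8 cohorts.

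Cacna1c had 72.7 to 124 CPM (median 106) with SB and 63.3 to 126 (median 91.9) with vehicle. These ranges nearly coincided, and the log2 difference was 0.14 ± 0.0586 (edgeR p = 0.0171, adjusted p = 0.663), positive in 6 of 8 cohorts. Cacna1g had the largest log2 difference, 0.19 ± 0.0844 (edgeR p = 0.0266, adjusted p = 0.689), which was 0.15 without the 4 distant libraries and 0.12 under voom. Cacnb3 had 0.13 ± 0.0661 (edgeR p = 0.0475, adjusted p = 0.7). Hcn2 (-0.029 ± 0.0623) and Cacng2 (-0.0086 ± 0.0542) were among the negative log2 differences.

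**Figure D2:**
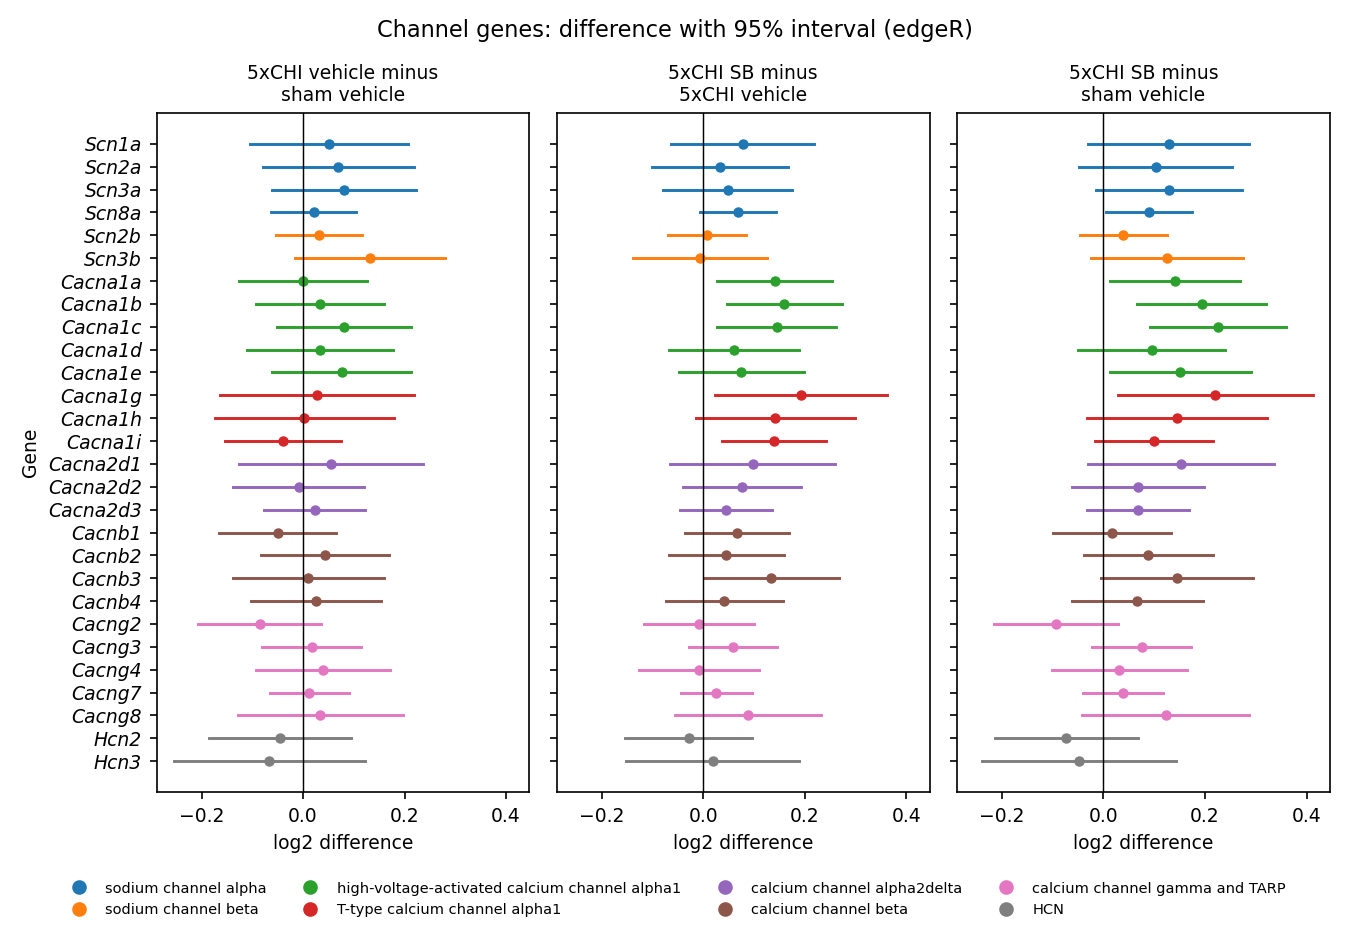
Log2 difference of 28 channel genes with its 95% interval from edgeR in 3 comparisons, coloured by role. In the middle panel (SB against vehicle in injured mice) the points of the 8 calcium channel alpha1 genes, in green and red, lie right of 0. No gene passed an adjusted p of 0.05 in any panel.

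Cell type markers moved alongside the SB difference. Oligodendrocyte markers summed to 2470 to 8670 CPM (mean 6140 ± 1750, SD, n = 19) in 5xCHI SB and to 5160 to 12300 CPM (7860 ± 1720, n = 20) in 5xCHI vehicle libraries, and 8 of 8 had lower values with SB at an unadjusted p under 0.05 by edgeR. The 5 measured striatal markers all had higher values, 1 of them at that threshold, and summed to 226 to 1320 CPM with SB and 210 to 550 CPM with vehicle. The 5 upper layer markers also had higher values, 2 of them at that threshold, which 7.06% of all genes reached. Of the 6 deep layer markers 4 had lower and 2 higher values (median log2 difference -0.11). Endothelial markers had higher values in 4 of 4 and the measured thalamus markers in 3 of 3. Excitatory neuron markers summed to 5510 to 8040 CPM with SB and 5600 to 7780 CPM with vehicle. Their part in the channel differences was not tested. In bulk tissue, fewer cells of a type and less RNA per cell cannot be told apart.

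Treated injured mice were also set against sham vehicle mice, a comparison that shares libraries with those above. By edgeR (0% of all genes), DESeq2 and voom 0 members passed, and 6 had an unadjusted p under 0.05 by edgeR, 20% against 12.6% of all genes, 6 by DESeq2 and 0 by voom. Cacna1c had 55.4 to 111 CPM (median 92.7) in sham vehicle libraries, which overlap the 5xCHI SB libraries. Its log2 difference was 0.23 ± 0.0665 (edgeR p = 0.00137, adjusted p = 0.329). Cacna1b (0.19 ± 0.0636), Cacna1g (0.22 ± 0.0957), Cacna1a (0.14 ± 0.0641), Cacna1e (0.15 ± 0.0691) and Scn8a (0.0895 ± 0.0422) were the other 5. Cacng2 (-0.094 ± 0.0609) and Hcn2 (-0.074 ± 0.0702) led the negative ones. The member median was 0.092, 0.044 without the distant libraries and 0.034 under voom. Oligodendrocyte markers had lower values in 8 of 8 (median log2 difference -0.30, 7 at an unadjusted p under 0.05 by edgeR). The measured striatal and upper layer markers had higher values in 5 of 5 each (medians 0.22 and 0.17, 1 and 2 at that threshold). Deep layer markers had lower values in 4 of 6 and higher in 2 (median -0.11, 1 at that threshold). Endothelial and measured thalamus markers had higher values in 4 of 4 and 3 of 3. Their part in the channel differences was not tested. Without the distant libraries 3 channel genes had an unadjusted p under 0.05; 2 had one without female sham vehicle replicate 1 alone or male sham vehicle replicate 4 alone, and 9 without male sham vehicle replicate 5.

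SB in sham mice rests on 5 sham SB libraries. Again 0 members passed by edgeR (0% of all genes), DESeq2 or voom, and 4 had an unadjusted p under 0.05 by edgeR, 13.3% against 7.02% of all genes, 4 by DESeq2 and 2 by voom. Scn8a had 484, 599 and 642 CPM in the 3 female and 630 and 649 in the 2 male sham SB libraries, against 391 to 673 (median 550) in the 14 sham vehicle libraries. The sham SB values lie within that range. The log2 difference was 0.16 ± 0.0645 (edgeR p = 0.0171, adjusted p = 0.677). Cacna1c (0.21 ± 0.101), Scn1a (0.24 ± 0.12) and Cacna1i (0.18 ± 0.088) were the others, and Cacng2 (-0.14 ± 0.0946), Cacng4 (-0.047 ± 0.102) and Hcn3 (-0.067 ± 0.146) led the negative ones.

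These sham counts rest on few libraries. The number at an unadjusted p under 0.05 was 0 without the distant libraries, and also 0 without female sham SB replicate 3, male sham SB replicate 2 or male sham vehicle replicate 4. It was 1 without female sham SB replicate 1, female sham vehicle replicate 1 or male sham vehicle replicate 2, 6 without male sham vehicle replicate 5, and 8 in the cohorts that hold all 4 conditions. By cohort, the member median was 0.30 in F2 and 0.36 in M1, the cohorts with the low sham vehicle libraries, and 0.017 and -0.0019 in F1 and M2.

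The effect of SB was not shown to differ between injured and sham mice. For this interaction 0 members passed by edgeR (0% of all genes), DESeq2 or voom, and 0 had an unadjusted p under 0.05 by edgeR and DESeq2 and 1 by voom, against 1.38% of all genes by edgeR. The smallest p values belonged to Cacng2 (0.13 ± 0.109), Cacna1h (0.10 ± 0.157) and Hcn3 (0.086 ± 0.168) among positive and to Scn2b (-0.094 ± 0.0756), Scn8a (-0.0905 ± 0.0746) and Scn1a (-0.17 ± 0.138) among negative log2 differences, each with an adjusted p of 0.999 by edgeR.

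In single sexes, 0 members passed by edgeR (0% of all genes), DESeq2 or voom. For injury, 2 members in females (Cacna2d3 and Scn3b, 3.14% of all genes) and 2 in males (Cacna2d3 and Scn1a, 3.55%) had an unadjusted p under 0.05 by edgeR, and so did 2 and 2 by DESeq2 and 4 and 5 by voom. For SB after injury there were 5 in females by each tool (Cacna1a, Cacna1b, Cacna1c, Cacna1g and Cacna1i by edgeR, 7.21% of all genes), and in males 0 by edgeR (1.88%) and DESeq2 and 6 by voom. In females the SB difference was led by Cacna1i (0.17 ± 0.0655) and Cacna1b (0.19 ± 0.0721), with Cacng2 (-0.045 ± 0.0696) and Hcn2 (-0.047 ± 0.0802) leading the negative ones. In males it was led by Cacna1h (0.22 ± 0.12) and Cacnb3 (0.16 ± 0.101), with Scn2b (-0.028 ± 0.0583) on the negative side. The test of the sex difference of the SB effect gave 0 members past the threshold by any of the 3 tools (0% of all genes by edgeR) and 0 at an unadjusted p under 0.05 by edgeR and DESeq2 and 1 by voom, against 0.913% of all genes by edgeR. Among its leading members, male minus female, were Cacna1h (0.15 ± 0.157), Scn2b (-0.071 ± 0.0761) and Cacng7 (-0.061 ± 0.0697).

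The counts of channel genes at an unadjusted p under 0.05 in single sexes moved with single libraries. For SB in injured females the 5 genes became 2 without 5xCHI SB replicate 5 or 10 or 5xCHI vehicle replicate 4, 6, 8 or 9, and 3 without 5xCHI SB replicate 1, 7 or 8 or 5xCHI vehicle replicate 1 or 5. For SB in injured males the 0 became 3 without 5xCHI SB replicate 6 and 1 without 5xCHI SB replicate 2 or 5xCHI vehicle replicate 8. For injury in males the 2 became 0 without 5xCHI vehicle replicate 7, 1 without sham vehicle replicate 2 or 3, and 4 without sham vehicle replicate 1, 4 or 5. For injury in females the 2 became 4 without 5xCHI SB replicate 10, 5xCHI vehicle replicate 5 or sham vehicle replicate 1, and 5 without 5xCHI vehicle replicate 4 or 7 or sham vehicle replicate 7. Oligodendrocyte markers had lower values with SB in 8 of 8 in each sex, with a median log2 difference of -0.35 in females and -0.39 in males, and 4 of the 8 had an unadjusted p under 0.05 by edgeR in each. The striatal markers had higher values in 3 of 5 in females (median 0.018) and in 5 of 5 in males (median 0.56). Their part in the channel differences was not tested.

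Cacna2d3, an alpha2delta subunit known from auditory and pain pathways, had injury values of opposite sign in the sexes. In females it ranged from 79.1 to 137 CPM (median 95.9) in 12 5xCHI vehicle libraries and from 78.4 to 155 (median 104) in 9 sham vehicle libraries. The 8 male 5xCHI vehicle libraries had 96 to 135 CPM (median 111), against 92.9, 101, 98.9, 96.1 and 97.8 CPM in the 5 male sham vehicle libraries. In both sexes the groups overlapped. The log2 difference was -0.16 ± 0.0606 in females and 0.20 ± 0.079 in males, and the male minus female difference was 0.36 ± 0.0996 (edgeR p = 6.76e-04, adjusted p = 0.786). By voom its adjusted p was 0.049, whereas edgeR and DESeq2 called 0 members for this comparison (0% of all genes by edgeR).

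By edgeR 4 members had an unadjusted p under 0.05 for this sex difference, 13.3% against 6.13% of all genes, 4 by DESeq2 and 7 by voom. Beside Cacna2d3 they were Scn1a (0.47 ± 0.156), Cacnb4, a beta subunit abundant in cerebellum (0.33 ± 0.128), and Cacna1h (-0.40 ± 0.175), and Cacnb1 (-0.21 ± 0.115) was next among negative ones. Scn1a after injury was -0.18 ± 0.0945 in females and 0.29 ± 0.124 in males. The other leading log2 differences were those of Scn3b (0.23 ± 0.0903) and Cacna1h (0.20 ± 0.107) in females and of Cacnb1 (-0.16 ± 0.0911) and Hcn3 (-0.24 ± 0.149) in males. Tissue markers also had injury values of opposite sign in the sexes. Oligodendrocyte markers had lower values in 8 of 8 in females (median log2 difference -0.14) and higher values in 8 of 8 in males (0.27), with a median sex difference of 0.41 and 0 of 8 at an unadjusted p under 0.05 by edgeR. The measured striatal markers had lower values in 5 of 5 in females (-0.13) and higher in 5 of 5 in males (0.20), with a median sex difference of 0.32 and 1 of 5 at that threshold. Their part in the channel differences was not tested. The 4 channel genes became 9 without male sham vehicle replicate 4, 7 without female sham vehicle replicate 1 or male sham vehicle replicate 1, and 8 without the distant libraries.

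Cohort was the labelled factor under which channel genes passed the test. At equal injury and treatment, 21 of 30 members differed among the 4 female cohorts at an adjusted p under 0.05 (edgeR, 3 degrees of freedom), which is 70% against 50% of all genes. At an unadjusted p under 0.05 there were also 21, against 57.2% of all genes. Among the male cohorts 3 of 30 members differed, 10% against 3.83% of all genes. At an unadjusted p under 0.05 there were 6, 20% against 19.9% of all genes and so at that background. Of the 21 genes called in females, 13 had their highest fitted level in F1 and 13 their lowest in F4. The 3 called in males, Scn1a, Scn2b and Cacna1i, were also called in females, and all 3 were highest in M2 and lowest in M4. The library names number each cohort as its own block, so cohort cannot be told apart from that order. The day of tissue collection is not given per animal, so its part in the cohort differences was not tested.

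**Figure D3:**
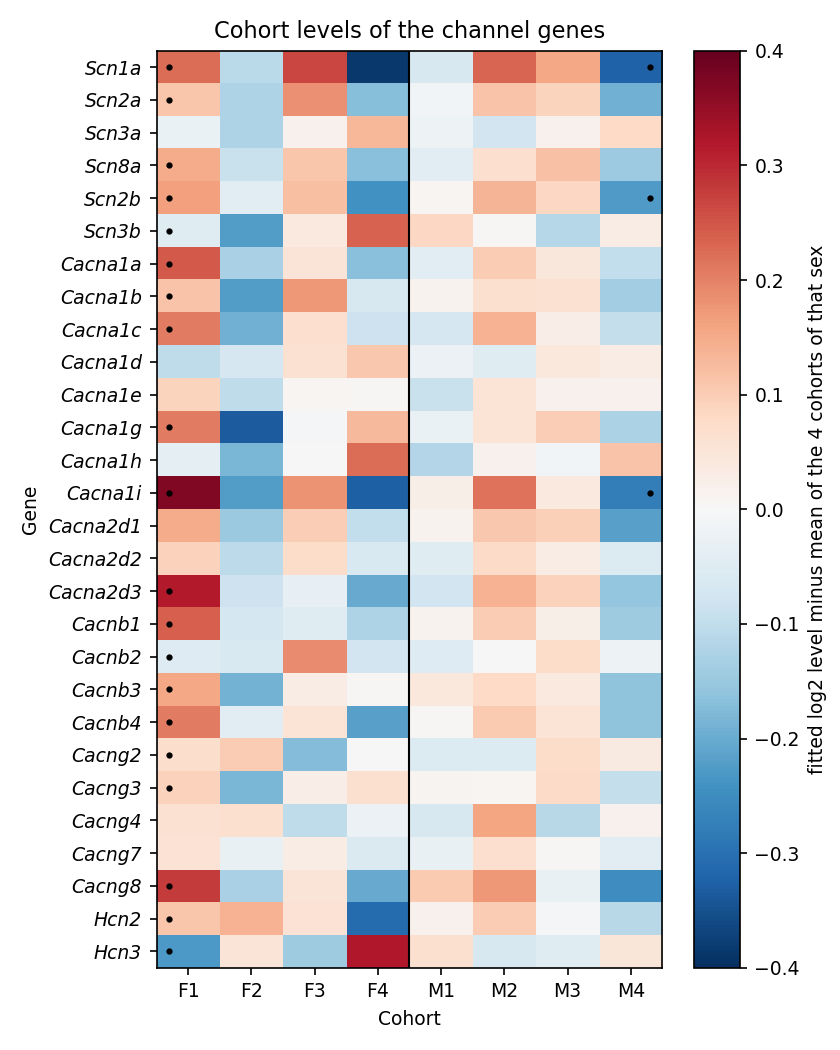
Fitted log2 level of 28 channel genes in the 8 cohorts, minus the mean of the 4 cohorts of that sex. Black dots in the F1 column mark the 20 drawn genes with an adjusted p under 0.05 among females and dots in the M4 column the 3 among males; Scn1a, Scn2b and Cacna1i are low in F4 and M4, and Hcn3 is high in F4.

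Cacna1i, the T-type subunit with the slowest gating, had the smallest p among female cohorts. It ranged from 178 to 245 CPM (median 205) in F1, 122 to 153 (143) in F2, 140 to 238 (178) in F3 and 114 to 137 (127) in F4. Every F1 library lay above every F2 and F4 library. The fitted cohort levels spanned 0.70 on the log2 scale (edgeR adjusted p = 5.99e-09). In males it ranged from 178 to 211 CPM (median 194) in M2 and from 120 to 159 (133) in M4, with no overlap, while M1 (124 to 202) and M3 (143 to 197) overlapped both. The male span was 0.49 (edgeR adjusted p = 0.0134).

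Scn1a had 254 to 366 CPM (median 282) in F1, 181 to 289 (227) in F2, 211 to 395 (302) in F3 and 167 to 208 (187) in F4. The F4 libraries lay below all F1 and F3 libraries. Its span was 0.65 on the log2 scale in females (edgeR adjusted p = 2.64e-05). Among males it ranged from 291 to 386 CPM in M2 and from 208 to 255 in M4, which do not overlap, and M1 (202 to 339) and M3 (189 to 380) overlapped both. The male span was 0.56 (edgeR adjusted p = 0.0279).

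Scn2b was also lowest in F4 and M4. The 5 F4 libraries held 248 to 266 CPM, below the 312 to 378 CPM of F1, while F2 (265 to 322) and F3 (231 to 391) overlapped F4. The span was 0.41 in females (edgeR adjusted p = 6.74e-06). In males M4 had 248 to 305 CPM, below M2 (343 to 377) and M3 (330 to 354), and M1 had 299 to 365, for a span of 0.36 (edgeR adjusted p = 0.0114). Cacna2d3 had 108 to 155 CPM in F1 and 79.1 to 95.2 in F4, with no overlap, a span of 0.52 (edgeR adjusted p = 4.72e-07). In males its adjusted p by edgeR was 0.0523, just outside the threshold.

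**Figure D4:**
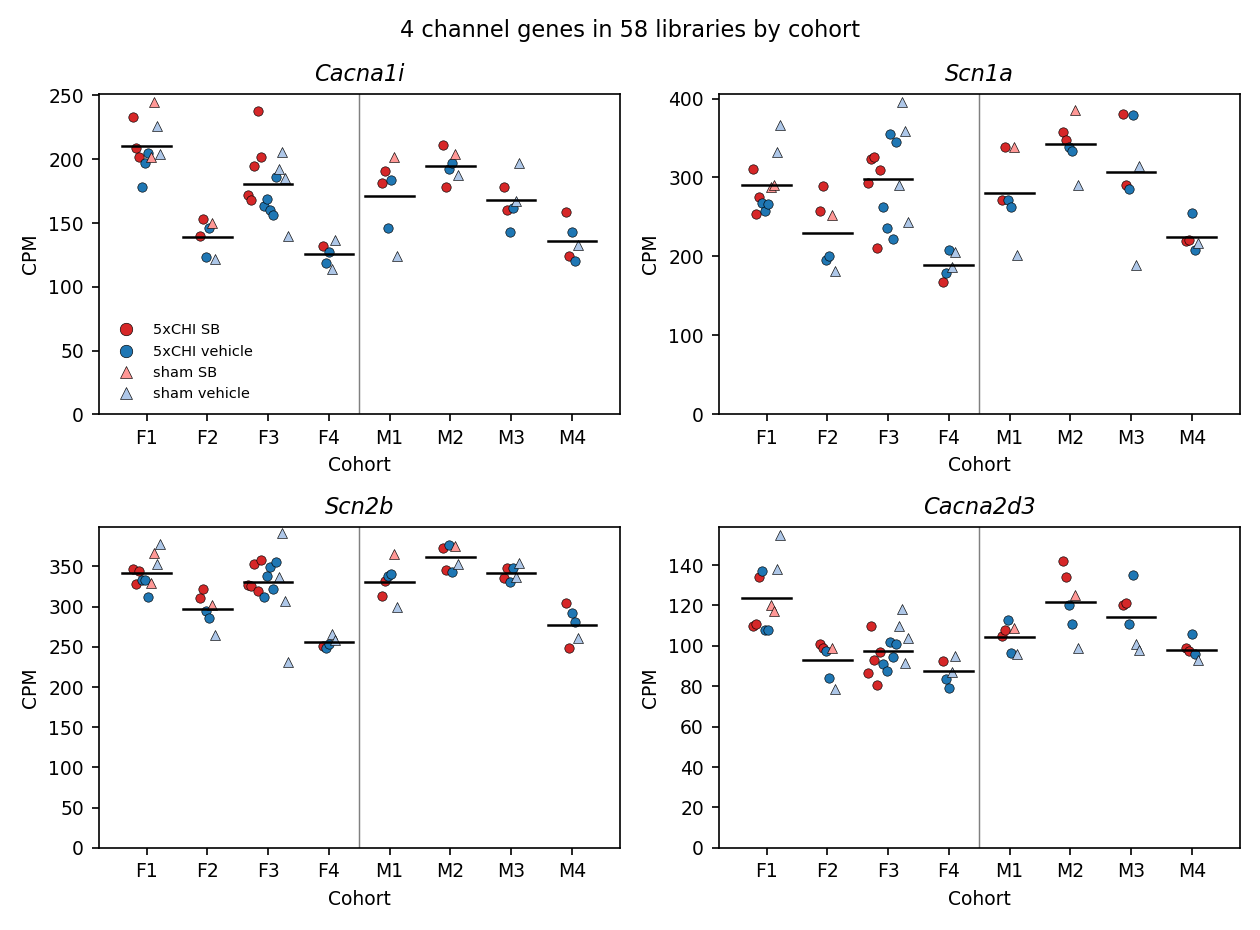
CPM of Cacna1i, Scn1a, Scn2b and Cacna2d3 in the 58 libraries by cohort. Points are libraries, coloured by condition, with circles for 5xCHI and triangles for sham, and bars are cohort means; F4 and M4 have the lowest mean of their sex for all 4 genes.

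Scn8a was also among the female cohort calls of smallest p. It had 542 to 664 CPM in F1 and 443 to 517 in F4, without overlap (span 0.32, edgeR adjusted p = 5.51e-05), and an edgeR adjusted p of 0.0526 among males. Hcn3 ran the other way, at 9.1 to 15.5 CPM in F1 and 15.6 to 21.8 in F4 (span 0.55, edgeR adjusted p = 0.00502).

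By role, the female cohort calls covered 3 of 4 sodium channel alpha genes (all but Scn3a), 2 of 3 sodium channel beta genes, 3 of 5 high-voltage-activated pores (all but Cacna1d and Cacna1e) and 2 of 3 T-type pores (all but Cacna1h). They covered 1 of 3 alpha2delta genes (Cacna2d3), 4 of 4 beta genes, 3 of 5 gamma genes (all but Cacng4 and Cacng7) and 3 of 3 HCN genes. Against the 50% of all genes called, these shares run from 33.3% (alpha2delta) to 100%, over few genes per role. Of the other called genes, Cacnb2 spanned 0.26 and Cacna1g 0.54 on the log2 scale. Without the 4 distant libraries 21 members were called in females, 20 of them shared, and 5 in males, where Cacna2d3 and Scn8a joined. The male calls rest on single libraries: 0 passed without male 5xCHI SB replicate 6 (M4) or male sham vehicle replicate 1 (M4), and 6 passed without male sham vehicle replicate 4.

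Tissue marker sums also varied between the same cohorts, but few single markers passed the adjusted edgeR threshold among males. Among male cohorts 0 of 7 excitatory, 0 of 8 oligodendrocyte and 0 of 6 astrocyte markers passed. Inhibitory markers passed there for 2 of 7 and striatal markers for 1 of 5. Among female cohorts 4 of 7 excitatory, 4 of 7 inhibitory and 2 of 6 astrocyte markers passed, against 50% of all genes. Oligodendrocyte markers passed there for 7 of 8 and striatal markers for 4 of 5. Inhibitory neuron markers summed to 1010 ± 65.2 CPM in F1 (SD, n = 10) and 823 ± 30.5 in F4 (n = 5), and to 1040 ± 66.9 in M2 (n = 6) and 877 ± 18.5 in M4 (n = 5). Excitatory markers summed to 7390 ± 325 CPM in F1, 5900 ± 811 in F4, 7280 ± 451 in M2 and 6110 ± 278 in M4. The 5 measured striatal markers summed to 452 ± 171 CPM in F1, 222 ± 27.2 in F4, 263 to 1320 (median 365) in M2 and 246 ± 47.5 in M4. Oligodendrocyte markers summed to 6930 ± 985 CPM in F1, 10700 ± 4930 in F2, 6720 ± 2210 in F4, 6660 ± 1220 in M2 and 9240 ± 2340 in M4. Astrocyte markers summed to 5320 ± 301 CPM in F1, 4070 ± 227 in F4, 5020 ± 269 in M2 and 4760 ± 535 in M4. In F1 and F4, oligodendrocyte precursor markers summed to 202 ± 13.8 and 154 ± 18.5 CPM, and microglia markers to 294 ± 20.8 and 257 ± 11. Measured thalamus markers summed to 287 ± 24 and 192 ± 23.9 CPM there. Endothelial markers summed to 155 ± 12.5 CPM in F1, 157 ± 26 in F4 and 128 ± 16 in F2. Singly, 2 of 4 endothelial markers passed among female cohorts, with spans of up to 1.25 (smallest edgeR adjusted p = 7.65e-06). The part of these differences in the channel cohort levels was not tested.

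Genes that work with these channels were also examined, 50 measured of 58 listed. For injury 0 of 50 passed by edgeR (0% of all genes) and 0 had an unadjusted p under 0.05, against 1.75% of all genes. For SB in injured mice 0 passed and 4 had an unadjusted p under 0.05, 8% against 7.06% of all genes and so near that background. They were led by the calcium pump Atp2b2 (log2 difference 0.14 ± 0.0555, edgeR p = 0.0172, adjusted p = 0.663). Results of the other tools are not reported for this list. Among female cohorts 36 of 50 passed, 72% against 50% of all genes, and among male cohorts 4 of 50, 8% against 3.83%. Atp2b2, a fast plasma membrane calcium pump, had the smallest p in both sexes, with a span of 0.86 in females (edgeR adjusted p = 3.97e-09) and 0.52 in males (edgeR adjusted p = 0.0114).

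Against the 50% of all genes, the lists ran from 44.4% to 100%. By list, 7 of 9 anchors of initial segments and nodes passed among female cohorts, led by the paranodal Cntnap1 (span 0.59, edgeR adjusted p = 1.44e-06) and the spectrin Sptan1 (0.44). Both also passed in males (0.44 and 0.32), as did the striatal-marker beta subunit Scn4b, which spanned 1.5 in females and 1.09 in males. Calcium channel partners passed for 9 of 12 in females, led by the active zone scaffold Rims1 (0.71, edgeR adjusted p = 4.79e-06), and pumps and exchangers for 12 of 15. Both measured HCN partners passed in females, led by Pex5l, which traffics HCN channels (0.54, edgeR adjusted p = 2.36e-04). The FHF and ubiquitin ligase partners of sodium channels passed for 4 of 9, 44.4% and so below the share of all genes, led by Dpysl2 (0.33), and the sodium leak complex for 2 of 3, led by Unc79 (0.41).

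Channel genes are long, and length moved with several of the comparisons. Their median exonic length was 9363 bases against 5032.5 over all genes, and 18 of 30 had at least 7680 bases, a length that 25% of all genes reach. Across the 9550 genes with a length, which share libraries and are not independent replicates, the log2 difference correlated with length with a Spearman rho of 0.46 for injury, 0.34 for SB in injured mice and 0.54 for injured SB against sham vehicle mice. Within the 30 members rho was 0.55, 0.30 and 0.50. Over all genes it was 0.43 for SB in sham mice and -0.29 for the interaction. It was 0.0037 for injury in females and 0.47 in males, 0.44 for SB in injured females and 0.081 in males, 0.35 for the sex difference of the injury effect and -0.36 for that of the SB effect. The slope of log2 level on log2 length was lowest, at -0.187, in female sham vehicle replicate 1, and averaged 0.0321 in F1 and -0.0625 in F4.

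Removing the length trend from each library took the member median from 0.026 to 0.0057 for injury, from 0.060 to 0.037 for SB in injured mice and from 0.092 to 0.047 for injured SB against sham vehicle mice. For SB in injured mice, Cacna1b then had a log2 difference of 0.13 (edgeR p = 0.0045, adjusted p = 0.645) and Cacna1g one of 0.17 (edgeR p = 0.0519, adjusted p = 0.72). With the trend removed, 26 members were called among female cohorts, including all 21, and the same 3 among males.

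**Figure D5:**
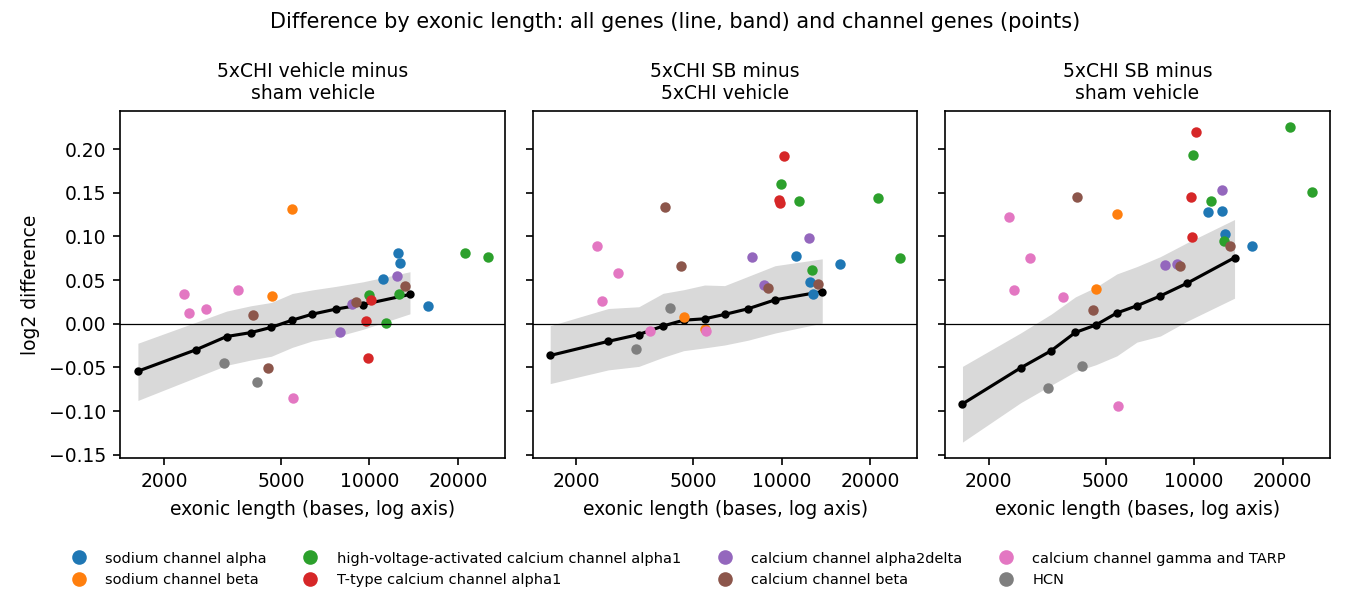
Log2 difference against exonic length in bases (log axis) in 3 comparisons. The black line joins the medians of all genes in 10 length bins, the grey band spans the middle 50% of genes and coloured points are 28 channel genes; the line rises with length in each panel, from -0.054 to 0.034 in the first.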

How the data were processed

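Polyadenylated RNA of somatosensory cortex was sequenced with a directional kit, per the labels' protocols. The authors deposited raw read counts per gene, 1 table of 9636 genes by 58 libraries. STAR, featureCounts, DESeq2 and GRCm39 (mm39) are named, per the submitters' processing notes. For versions, annotation, strand setting and filters: not given in the sources used here. Overlapping and antisense genes may therefore have shared reads. No count lies below 101 and no gene's mean below 270.

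Tests used edgeR 4.0.16 (R 4.3.3, TMM, robust quasi-likelihood) on a model of 8 groups (sex by injury by treatment) and cohort within sex, with 44 residual degrees of freedom. Two-sided p-values were adjusted by Benjamini-Hochberg over all genes, and a difference over both sexes weights females and males equally. A cohort span is the largest minus the smallest fitted cohort level. Levels are TMM-scaled CPM. Alternatives were DESeq2 1.42.0, limma 3.58.1 voom with quality weights, RLE or no normalization factors, a mean count of at least 1000, removal of a length trend (lengths for 9550 genes), a replicate block, no cohort term and leaving out libraries. The model was tested on simulated data.

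The members and lists were chosen with earlier results of these data known. Named genes are those past the threshold or, with none, the 3 (in one sex or for a sex difference, 2) of smallest p in each direction; cohort tests name the 6 of smallest p. Some members are counted but not reported by name here. Hcn3 between cohorts and the other genes at an unadjusted p under 0.05 were named after their values were seen. Libraries of a group differed by more than sampling noise in every pair (chi-square over its degrees of freedom at least 9.83).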

Additional observations from a re-analysis of the deposited data

Results flagged for a closer look

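In groups of 4 to 10 libraries, 1 library stood far from the rest of its group for 7 of 120 gene and group pairs, and chance alone gives about 1 in 20. The 6 reported here follow. Cacna1b was 127 CPM in male 5xCHI SB replicate 6, with the next at 166, and 135 CPM in male 5xCHI vehicle replicate 3, with the next at 153, and both libraries are of cohort M4. Female sham vehicle replicate 1 had the lowest Cacna1e of its group, 245 CPM with the next at 344, and the highest Hcn2, 196 CPM with the next at 141. Cacng4 was 48.7 CPM in male 5xCHI SB replicate 1, with the next at 32.2, and 25.4 CPM in male sham vehicle replicate 5, with the next at 30.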

How the results depend on the processing

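For the 11 comparisons other than cohort, 0 channel genes passed an adjusted p of 0.05 under every alternative run, except for 1 gene (Cacna2d3) that voom called for the sex difference of the injury effect. Among female cohorts the 21 calls became 12, all shared, with a replicate block, and 19 to 21 when single libraries were left out. Among male cohorts the 3 calls became 5 with DESeq2, 12 with voom, 1 (Cacna1i) with a replicate block, 5 without the distant libraries, 6 when the length trend was removed as well, and 0 to 6 when single libraries were left out. They were 5 without female 5xCHI SB replicate 10 or female sham vehicle replicate 1, 5, 7 or 9, and 2 without male 5xCHI SB replicate 1 or 5 or male 5xCHI vehicle replicate 1 or 3. Leaving out the distant libraries was chosen after seeing the data.

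Of 62 same-numbered pairs of libraries within a sex, 16 were of 1 cohort and 21 correlated above 0.1 (range -0.60 to 0.59), so replicate numbers did not pair the samples. With the replicate block no call other than those above changed.

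Among the genes reported by name, signs turned only for log2 differences that had not passed. For injury, voom gave -0.036 for Cacna1c and 0.0099 for Cacng2, and the replicate block 0.0045 for Cacnb1. For SB in injured mice, Cacng2 ran from -0.035 to 0.0088 with a library left out. For injured SB against sham vehicle mice, Hcn2 was 0.025 by voom, 0.024 without the distant libraries and 0.032 also without the length trend. For SB in sham mice, Cacng4 was 0.019 by voom, 0.034 with no cohort term and -0.10 to 8e-04 with a library left out, and Hcn3 was 0.012 without the distant libraries and 0.024 also without the length trend. For the interaction, Cacna1h was -0.0028 in the cohorts with all 4 conditions, and Hcn3 was -0.0042 without the distant libraries and -0.010 also without the length trend. The cause was not tested.

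Each member had at least 272 counts in every library. Sham SB rests on 5 libraries, and several cohorts hold 1 library of a condition.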
